A study of Mus musculus with 2 samples.

Results

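The 6 miRNA genes Mir10a, Mir10b, Mir196a-1, Mir196a-2, Mir196b and Mir615 lie inside the Hox clusters of the mouse genome. They were chosen by gene symbol through their Ensembl identifiers, and they are 6 of the 2202 miRNA genes counted in the series. Small RNA of under 30 bases was sequenced from left cerebral cortex. The mice were males of 2 months and of B6CASTF1/J, the F1 cross of the C57BL/6J and CAST/EiJ strains. The series has 1 group with 2 libraries, library 1 from the animal numbered 3 and library 2 from the animal numbered 4, and the labels give no treatment and no other genotype. The labels give both samples 1 donor identifier but different animal and replicate numbers. Only these numbers mark them as separate animals, so their spread may be technical. No comparison between conditions exists. Levels of the 6 genes are given for each library, whereas list medians are of means over the 2 libraries.

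Hox genes encode transcription factors that set position along the body axis of the embryo, and they stand in clusters in the order in which they are used from head to tail. Forebrain, from which the cortex develops, lies in front of the region in which Hox genes are normally active, whereas hindbrain, spinal cord and trunk tissue use them. The miRNA genes within the clusters are expressed along the same axis, and their products repress several Hox mRNAs. miR-10 has been tied to Hox genes of the hindbrain in zebrafish and to HOXD10 in human cells. miR-196 directs the cleavage of the Hoxb8 mRNA in the mouse embryo. miR-10 is also known from vessels and blood cells, and miR-196b from blood progenitors. A bulk sample mixes all of these cells, and fewer cells of a type and less RNA per cell cannot be told apart in it.

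The mature sequences of the 6 genes show which of them share a seed and which of them short reads can tell apart. They come from RefSeq (build GRCm38.p6), which held mature sequences for 6 of the 6 genes, and capitals mark the seed (bases 2 to 8 from the 5′ end), the part that pairs with target mRNAs.
mmu-miR-10a-5p: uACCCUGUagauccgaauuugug
mmu-miR-10b-5p: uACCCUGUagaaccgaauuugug
mmu-miR-196a-5p: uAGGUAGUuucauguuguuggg
mmu-miR-196b-5p: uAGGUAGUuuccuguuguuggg
mmu-miR-615-5p: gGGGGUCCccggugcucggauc
mmu-miR-615-3p: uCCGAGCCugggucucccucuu

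miR-10a-5p and miR-10b-5p have the same seed and differ by 1 substitution, U12A, with positions counted from 1 at the 5′ end and the base of miR-10a first. No other name among the 1679 mature miRNAs of the RefSeq table has that seed. miR-196a-5p and miR-196b-5p also share a seed that no other mature miRNA in the table has, and they differ by the substitution A12C. Neither seed of miR-615 occurs in another mature miRNA of the table. In both pairs the difference sits in the middle of the molecule, outside the seed.

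miR-196a-5p is the mature product of 2 genes, Mir196a-1 and Mir196a-2. Their hairpins share a stretch of 22 bases, the length of the mature sequence, and no longer one. The opposite arms, shown here because they are where the copies can be told apart, have different sequences.
mmu-miR-196a-1-3p: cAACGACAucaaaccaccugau
mmu-miR-196a-2-3p: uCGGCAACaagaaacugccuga

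Of the 81 stretches of 22 bases in the Mir196a-1 hairpin, 1 occurs in another annotated miRNA hairpin, that of Mir196a-2, and the same holds for 1 of 64 stretches in Mir196a-2. Hairpins of Mir10a, Mir10b, Mir196b and Mir615 have no such stretch in common with another locus. With 1 mismatch allowed, 7 stretches of Mir10a match Mir10b, 4 of Mir196b match a Mir196a copy, and none of Mir615 matches any hairpin. The deposited tables tally reads that map to several places apart from the genes, at 41.7% of all reads in library 1 and 41.1% in library 2. A read that matches miR-196a-5p from end to end has both loci as a source and may fall in that tally, so the low counts of the Mir196a genes cannot be read as low expression. The number of mismatches the aligner accepted was not given in the sources used here. Reads that cannot be told between miR-10a and miR-10b, or between miR-196a and miR-196b, may also be among them. The rest of the genome was not searched for further copies.

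The 4 Hox clusters hold 39 numbered Hox genes and 7 annotated miRNA genes, the 6 described here and Gm44463, which had no read in either library. Coordinates are those of mm10 with the GENCODE M21 annotation. Mir10a (ENSMUSG00000065519.1; chromosome 11, 96317165 to 96317274, plus strand) lies between genes, 993 bases before Hoxb4 and 11044 bases after Hoxb5. Mir10b (ENSMUSG00000065500.3; chromosome 2, 74726070 to 74726137, plus strand) lies in introns of long transcripts of Hoxd3 and Hoxd4. The Mir10 genes thus have their place next to genes of paralogue group 4. Mir196b (ENSMUSG00000065443.1, chromosome 6, 52230081 to 52230165, minus strand) lies within Hoxa9, in an annotated exon of that gene, 1032 bases from Hoxa10. Mir196a-2 (ENSMUSG00000065488.2; chromosome 15, 102973350 to 102973434, plus strand) lies between Hoxc10 and Hoxc9, in an intron of a long transcript of Hoxc5. Mir196a-1 (ENSMUSG00000065546.1; chromosome 11, 96265164 to 96265265, plus strand) lies between genes, 6192 bases before Hoxb9. The Mir196 genes therefore stand on the far side of group 9 in 3 clusters. Mir615 (ENSMUSG00000076010.1; chromosome 15, 103014910 to 103015001, plus strand) sits within an intron of Hoxc5, 3029 bases after Hoxc6.

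**Figure D1:**
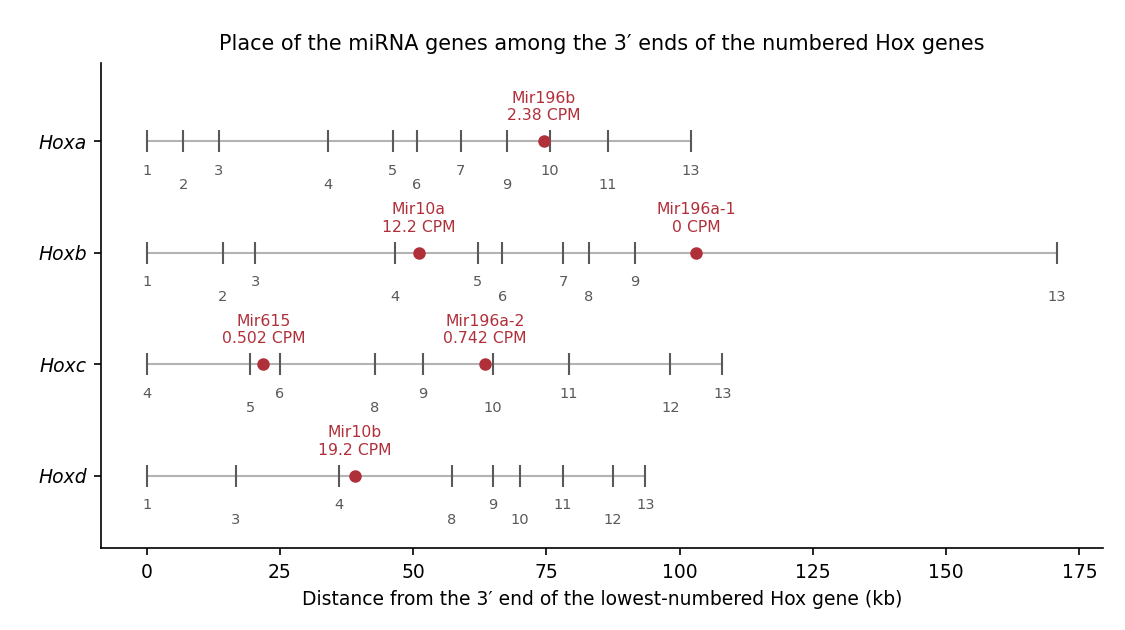
Each horizontal line is a Hox cluster, and the x axis gives the distance in kb from the 3′ end of its lowest-numbered gene. Grey ticks mark the 3′ ends of the numbered Hox genes, and red points the miRNA genes with their mean CPM over 2 libraries. Mir10a (12.2 CPM) and Mir10b (19.2 CPM) stand beside the genes numbered 4, and the 3 Mir196 genes (0 to 2.38 CPM) beyond those numbered 9.

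Sequencing gave 11372894 reads for library 1 and 12980686 for library 2, of which 3827158 and 4553291 fell on the sense strand of a miRNA gene. Levels are counts per 1000000 of these sense-strand reads (CPM), so 1 read is worth 0.261 CPM in library 1 and 0.220 CPM in library 2. Intervals are exact 95% intervals computed from the read counts alone, so they cover counting error only. The reads carry no molecular identifiers, so copies made of the same molecule cannot be told apart. Detection required at least 10 reads in each library, which held for 406 of 2202 genes (18.4%). The tissue label was checked for neurons with 13 genes of neuron-enriched miRNAs, of which 10 were detected, with Mir132, induced by neuronal activity, as the highest at 39333 ± 12985 CPM (SD, n = 2). Not detected were Mir124a-2 (0.899 CPM), Mir124a-3 (0.894 CPM) and Mir9-2 (1.79 CPM), copies whose reads may be tallied as multimapping. In libraries 1 and 2 they had 1 and 7, 6 and 1, and 7 and 8 reads. The check cannot tell cortex from hindbrain or spinal cord, since the list holds markers of neurons and none of position.

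The Hox-cluster miRNA genes had few counted reads in cortex, and most of these came from the Mir10 genes. Together the 6 genes had 112 reads in library 1 and 186 in library 2. As a share of sense-strand miRNA reads, library 1 gave 0.00293% (0.00241 to 0.00352%) and library 2 gave 0.00408% (0.00352 to 0.00472%), or 0.00351% ± 0.000819 on average (SD, n = 2). Mir10a and Mir10b supplied 96 of the 112 reads in library 1 (85.7%, 77.8 to 91.6%) and 172 of the 186 in library 2 (92.5%, 87.7 to 95.8%). Their summed level was 31.4 ± 8.97 CPM (SD, n = 2), whereas the 3 Mir196 genes reached 3.13 ± 0.383 CPM together, without any miR-196a reads tallied as multimapping. Of the 6 genes, 2 were detected, Mir10a and Mir10b, where 18.4% of all miRNA genes were. With 1 or more reads in both libraries, 5 of the 6 counted as present, where 27.9% of all genes did. A read in either library was found for 34.4% of all genes and for the same 5 members. Sets this small allow no reading of these shares beyond the counts.

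Mir10b, the gene in the Hoxd cluster, was the highest. It had 53 reads in library 1 (13.8 CPM, 10.4 to 18.1) and 112 reads in library 2 (24.6 CPM, 20.3 to 29.6), with a mean of 19.2 ± 7.60 CPM (SD, n = 2). By mean CPM it stood at rank 279 of the 2202 genes, below the median of 95.6 CPM over the 406 detected genes. Mir10a, the gene in the Hoxb cluster, had 43 reads in library 1 (11.2 CPM, 8.13 to 15.1) and 60 reads in library 2 (13.2 CPM, 10.1 to 17.0), with a mean of 12.2 ± 1.37 CPM. It stood at rank 307. The lower of the Mir10b values, in library 1, lay just above the higher of the Mir10a values, in library 2, but their counting intervals overlapped widely.

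The order of the Mir10 genes was clear in library 2 and not in library 1. There were 1.23 reads of Mir10b for each read of Mir10a in library 1 (0.809 to 1.89) and 1.87 in library 2 (1.35 to 2.60). The difference of these ratios between the libraries did not pass the two-sided Fisher's exact test on the read counts (odds ratio of library 1 over library 2 0.660, p = 0.118). With 1 substitution between the mature products, the split between the genes also rests on how reads with a mismatch were placed, which was not tested.

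Mir196b, next to Hoxa9, followed at 2.38 ± 0.0454 CPM (SD, n = 2). It had 9 reads in library 1 (2.35 CPM, 1.08 to 4.46) and 11 reads in library 2 (2.42 CPM, 1.21 to 4.32), so it missed the detection minimum by 1 read in library 1. Both libraries thus gave nearly the same counted level. There were 4.78 reads of Mir10a for each read of Mir196b in library 1 (2.30 to 11.1) and 5.45 in library 2 (2.84 to 11.5), so the step between the Mir10 genes and Mir196b exceeded counting error in both libraries.

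The remaining 3 genes had between 0 and 4 counted reads per library. Mir196a-2 had 4 reads in library 1 (1.05 CPM, 0.285 to 2.68) and 2 reads in library 2 (0.439 CPM, 0.0532 to 1.59). Mir615 had 3 reads in library 1 (0.784 CPM, 0.162 to 2.29) and 1 read in library 2 (0.220 CPM, 0.00556 to 1.22). Mir196a-1 had no read in either library, which allows up to 0.784 CPM in library 1 and 0.659 CPM in library 2 (3 counts of the total). The values of Mir196a-2 and Mir615 overlapped between the libraries and their order cannot be given. Reads of Mir196b per read of Mir196a-2 were 2.25 in library 1 (0.628 to 9.999) and 5.50 in library 2 (1.20 to 51.1), so these neighbours differed beyond counting error in library 2 but not in library 1. A difference between Mir615 and Mir196a-1 was not detectable at this depth. For Mir615, whose 22-base stretches occur in none of the other annotated hairpins, where the reads were placed was not tested. Its hairpin has 69.6% G and C, against a median of 50.8% over all 2202 hairpins and 39.7% to 48.0% in the other 5.

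**Figure D2:**
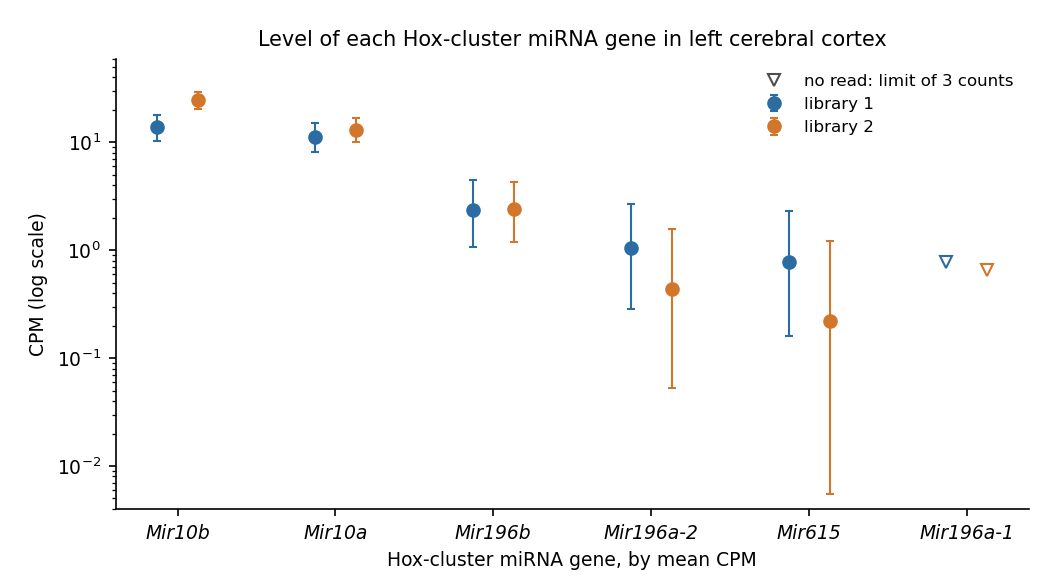
The y axis gives CPM on a log scale and the x axis the 6 genes by mean level, with a point for each library and its exact 95% Poisson interval. Open triangles mark the limit of 3 counts for a gene with no read. Mir10b and Mir10a lie above 10 CPM in both libraries, Mir196b near 2.4 CPM, and the others at about 1 CPM or below.

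In the order of all 2202 miRNA genes, Mir10b and Mir10a had ranks 279 and 307. The 4 members with few reads stood at rank 427 (Mir196b), 558 (Mir196a-2), 599 (Mir615) and, tied with all 1444 genes without a read, 759 (Mir196a-1). The median over the 6 genes was 1.56 CPM, beside 0 CPM over all genes and 95.6 CPM over the detected ones. Levels were compared as reads per gene and not divided by hairpin length, since each read is a whole small RNA.

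Mir99a, Mir99b and Mir100 outside the Hox clusters make the relatives of miR-10, with a shifted but similar sequence and another seed. They are shown to compare with miR-10a-5p above.
mmu-miR-99a-5p: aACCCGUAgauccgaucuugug
mmu-miR-99b-5p: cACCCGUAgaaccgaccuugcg
mmu-miR-100-5p: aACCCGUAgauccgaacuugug

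miR-10a-5p is 3 single-base edits from miR-100-5p, 4 from miR-99a-5p and 6 from miR-99b-5p, so reads of these genes are farther from miR-10 than miR-10a and miR-10b are from each other. The relatives were far more abundant. Against 13.8 CPM of Mir10b in library 1 and 24.6 CPM in library 2, Mir99a reached 9147 CPM in library 1 and 11558 CPM in library 2. This is 661 reads of Mir99a for each read of Mir10b in library 1 (505 to 882) and 470 in library 2 (390 to 571). Mir99b had 180 reads per read of Mir10b in library 1 (138 to 241) and 316 in library 2 (262 to 384), and Mir100 had 197 (150 to 263) and 139 (116 to 169). In both libraries the gap was far wider than the counting intervals and the difference between the libraries. Mir99a and Mir100 are themselves within 1 mismatch of each other over 2 stretches of 22 bases, and Mir100 reached 2727 CPM in library 1 and 3423 CPM in library 2.

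**Figure D3:**
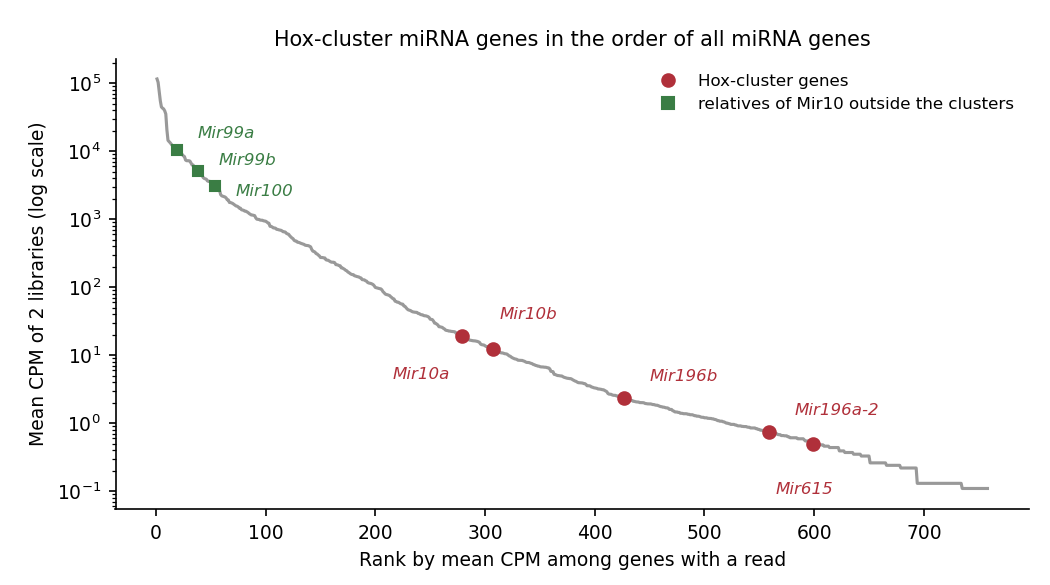
The x axis ranks the 758 genes with a read by mean CPM, and the y axis gives that mean on a log scale. Red points are the 5 Hox-cluster genes with a read and green squares the relatives of Mir10 outside the clusters. Mir99a, Mir99b and Mir100 stand among the first 54 genes, and Mir10b at rank 279 is the highest red point.

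miRNAs known from other organs gave a scale for counted levels in cortex. Detected were 8 of 10 genes of epithelium and sensory organs, 4 of 9 of liver, pancreas and gut, and 2 of 9 of muscle, beside 2 of the 6 Hox-cluster genes. The median of the 6 genes, 1.56 CPM, stood near that of the liver, pancreas and gut list at 1.90 CPM, below the 15.3 CPM of the epithelium and sensory list, and above the 0 CPM of the muscle list. Muscle genes without a read include the copies Mir1a-1, Mir1a-2, Mir133a-1 and Mir133a-2. Mir194-1 had none beside Mir194-2 at 19.5 ± 10.8 CPM (SD, n = 2). As with Mir196a, reads of such copies may be tallied as multimapping. The muscle median of 0 CPM therefore cannot be read as absence of muscle miRNAs. Against 19.2 ± 7.60 CPM for Mir10b, the highest genes of these lists were Mir375 of pancreatic islets at 153 ± 29.5 CPM, Mir203 of skin at 78.2 ± 32.0 CPM and Mir206 of skeletal muscle at 29.5 ± 5.84 CPM (SD, n = 2 each). By mean CPM each of the 3 lists thus had at least 1 gene above every Hox-cluster gene. These were 4, 3 and 1 in the order epithelium and sensory, liver, pancreas and gut, and muscle. Of them, Mir200b (23.1 CPM), Mir183 (16.7 CPM) and Mir194-2 (11.9 CPM) lay below Mir10b (24.6 CPM) in library 2. In library 1 they lay above it, at 40.5, 28.2 and 27.2 CPM against 13.8 CPM. The Hox-cluster genes overlapped with all 3 lists, and no member stood above their range.

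The nearest genes in level, by distance of log2(CPM + 1) over the 2 libraries among the 406 detected genes, were Mir7052 and Mir448 for Mir10a. Mir7052 had 45 reads in library 1 and 62 in library 2 (distance 0.0747), and Mir448 had 39 and 63 (distance 0.145). For Mir10b they were Mir8114, with 64 and 103 reads (distance 0.280), and Mir32, with 49 and 92 reads (distance 0.291). The distance rests on 2 libraries and is a likeness of level only.

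**Figure D4:**
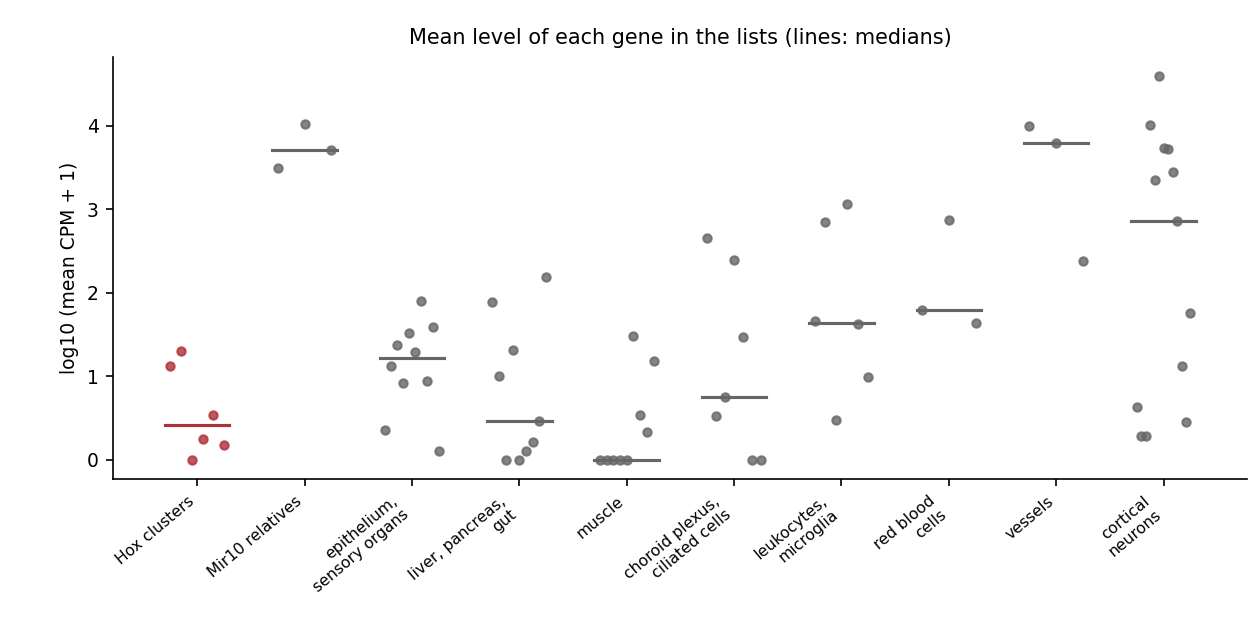
Each point is a gene, the y axis gives log10 of its mean CPM plus 1, and the x axis the gene lists, with the Hox-cluster genes in red at the left. Lines are medians. The red points lie between 0 and 19.2 CPM, below the highest gene of each other list and below all 3 relatives of Mir10.

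Between the libraries, Mir10b differed beyond counting error, and the other testable members did not pass the test. All genes with at least 10 reads over both libraries were tested with the two-sided exact binomial test. It takes the total reads of a gene as given and the expected split from the library sizes. Benjamini-Hochberg adjustment ran over all 508 such genes. Of these genes, 246 (48.4%) passed an adjusted p of 0.05, 25.2% as higher in library 1 and 23.2% as higher in library 2. Among the 139 genes with 50 to 500 reads in total, a depth like that of the Mir10 genes, 30.9% passed, and 11.5% as higher in library 2. Of the 6 members, 3 could be tested and 1 passed, as higher in library 2, and 3 genes are too few to set a share against these backgrounds. Mir10b was 1.78-fold higher in library 2 (1.27 to 2.51), a log2 ratio of library 1 over library 2 of -0.83 (-1.33 to -0.34; adjusted p = 0.00137 by the exact binomial test). Mir10a had a log2 ratio of -0.23 (-0.83 to 0.36; adjusted p = 0.556 by the exact binomial test), and Mir196b one of -0.04 (-1.49 to 1.37; adjusted p = 1 by the exact binomial test). The intervals leave room for a difference of the size of Mir10b in both of these genes.

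The binomial test compares the reads of 2 libraries and takes in no spread between samples. The spread over all 508 genes, from edgeR's common dispersion, came to a coefficient of variation of 33.2% beyond counting error. With that spread allowed for, Mir10b did not pass edgeR's exact test (p = 0.268, adjusted p = 1), and 4 of the 508 genes did (0.787%). At an unadjusted p of 0.05, edgeR's exact test passed 25 of the 508 genes (4.92%) and 0 of the 3 members tested. The dispersion came from the same 2 libraries, so this is no replicated test.

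Marker genes of other cells also differed between the libraries, in both directions, and their part in the difference of Mir10b was not tested. The counts below stand beside the 25.2% of all tested genes that passed as higher in library 1 and the 23.2% as higher in library 2. By the exact binomial test all 3 relatives were higher in library 2, led by Mir99b at 3.12-fold, and so were 2 of the 3 vessel genes, with Mir126a of endothelium at 8100 CPM in library 1 and 11825 CPM in library 2. The other vessel gene, Mir145a of smooth muscle, passed as higher in library 1, at 254 CPM in library 1 and 221 CPM in library 2. The summed level of the vessel list was 14355 CPM in library 1 and 18574 CPM in library 2. The 3 red blood cell genes summed to 134 CPM in library 1 and 1549 CPM in library 2. Mir451a, at 58.3 CPM in library 1 and 1419 CPM in library 2, made up most of the sum in library 2 only. Of the red blood cell genes, 2 passed as higher in library 2, and Mir486 passed as higher in library 1, at 51.0 CPM in library 1 and 34.7 CPM in library 2. The 6 leukocyte and microglia genes summed to 2167 CPM in library 1 and 1753 CPM in library 2, led by Mir150 at 1155 ± 191 CPM, with 3 genes passing as higher in library 1 and 0 as higher in library 2. A list of 7 genes known from choroid plexus and ciliated cells summed to 721 CPM in library 1 and 724 CPM in library 2, led by Mir204 at 444 ± 19.7 CPM, and none passed the test. Mir449b and Mir449c of that list had no read in either library. Of the neuron-enriched genes, 5 were higher in library 1 and 2 in library 2. These counts take in no spread between samples. With that spread allowed for, edgeR's exact test passed 4 of the 508 tested genes (0.787%). Among them were 0 relatives, 0 vessel genes and 0 neuron-enriched genes. Mir451a passed it as higher in library 2 (adjusted p = 1.93e-06 by edgeR's exact test), and Mir223 of the leukocyte list as higher in library 1 (adjusted p = 0.0484 by the same test).

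**Figure D5:**
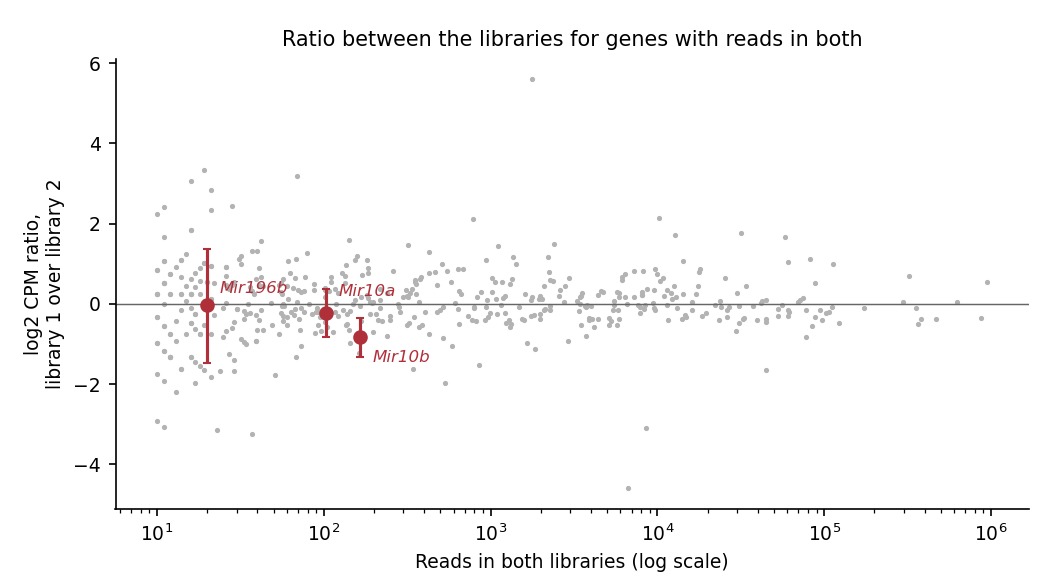
The x axis gives the reads of a gene in both libraries on a log scale, and the y axis the log2 CPM ratio of library 1 over library 2. Grey points are the 507 tested genes with a read in both libraries, and red points with exact 95% intervals are Mir196b, Mir10a and Mir10b. The interval of Mir10b lies below 0, and those of Mir10a and Mir196b include 0.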

How the data were processed

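For each library the authors deposited a table of raw counts (whole reads for every miRNA gene, not normalized), in 3 columns (strand ignored, sense, antisense), with 4 tally rows for reads that were unmapped, multimapping, outside genes or ambiguous. Reads were placed on mm10 with the gene models of GENCODE M21, per the labels and the deposited descriptions. Aligner, trimming and mismatch limits were not given in the sources used here. Library sizes and tests left these rows out. The rows held 19.6% and 18.9% (unmapped), 41.7% and 41.1% (multimapping), and 5.03% and 4.94% (outside genes) of the reads of libraries 1 and 2, and 0 and 1 ambiguous reads. The sense column was used for all values unless another column is named. mm10 is the sequence of C57BL/6J, so a read of the CAST/EiJ copy that differs from it may be lost.

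All gene identifiers matched GENCODE M21. Counts were scaled to CPM. Ratios used no pseudocount, and distances between genes used 1 CPM. edgeR 4.0.16 gave TMM factors, the common dispersion (intercept-only design) and its exact test, and DESeq2 1.42.0 size factors served as an alternative, in R 4.3.3. The remaining steps ran in Python 3.11.15 and scipy 1.17.1. The exact binomial test, the ratio intervals and the dispersion estimate were tried on simulated counts. For the binomial test these counts held counting error and no spread between samples. Fisher's exact test and edgeR's exact test were not tried in this way. Named genes are the 6 members, the 3 relatives of Mir10, the 2 detected genes nearest in level to each detected member, and the highest gene of each list. Mir145a, Mir486, Mir449b, Mir449c, Gm44463, Mir223, Mir9-2, Mir200b, Mir183 and copies of Mir1a, Mir124a, Mir133a and Mir194 are named beside results they bear on. They were chosen after their values were seen. The members, lists and tests were chosen with earlier results of these data known.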

Additional observations from a re-analysis of the deposited data

Results flagged for a closer look

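Mir10a had antisense entries in a column that the counts do not use. There were 3 in library 1 and 2 in library 2, or 5 over both libraries. These are 4.63% of the entries on both strands (exact 95% interval 1.52 to 10.5%). No annotated miRNA gene overlaps Mir10a on the other strand. Of 379 detected genes without such a partner, 7 (1.85%) had antisense entries in both libraries, and Mir10a stood at rank 6 by their share. The other 5 Hox-cluster genes had 0 antisense entries.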

How the results depend on the processing

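The count of detected members was 2, and 5 with 1 or more reads required. It ranged from 2 to 3 without either library, since Mir196b passed in library 2 alone. The summed share of 0.00351% of sense-strand miRNA reads became 0.00121% of all reads, 0.00824% of the miRNA reads outside the 10 highest genes, and 0.00293% to 0.00408% without either library. Mir10b was the 1 member that differed between the libraries under the column that ignores strand, TMM factors, DESeq2 size factors and both other count minimums, with adjusted p from 0.000609 to 0.00204 by the exact binomial test, whereas 0 members passed edgeR's exact test. Its log2 ratio ranged from -0.87 to -0.65, with the smallest change at a pseudocount of 5 CPM. Without 1 of the libraries the test between them could not be run. Ignoring strand moved the mean of Mir10a to 13.8 CPM and that of Mir196b to 2.57 CPM, past their small SDs. Reads of Mir196b were the same in that column, 9 and 11, so its shift came from the smaller total alone. That total also moved Mir10b, with unchanged reads, to 20.7 CPM, within its SD. Mir10a had 46 and 62 reads there. No paired analysis was possible because the series has 1 group. Depth limits Mir196a-1, Mir196a-2 and Mir615, for which 0 to 4 reads per library fix no order. Mapping also limits both Mir196a genes at any depth, since reads of miR-196a-5p may be tallied as multimapping.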
